A study of Mus musculus with 2 samples.

Results

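The genes described here are 10 members of the inducible heat shock system: Hspa1a, Hspa1b, Dnajb1, Hsph1, Bag3, Hspb1, Hsp90aa1, Hspa8, Hspe1 and Hspd1. They were picked by symbol from the 31253 genes of a single-cell RNA data set of tumour leukocytes, and all 10 were found in each library. The choice was made with the differences between these libraries known, so the ratios below describe the genes and are no test of them. The cells came from tumours of MB49, a mouse bladder cancer line, grown in chimeric mice. The hosts were lethally irradiated female mice that had received marrow from male donors, either wild type or Lcn2 knockout. Lcn2 encodes lipocalin 2, a secreted siderophore-binding protein of neutrophil granules, and the series was made to ask about its part in neutrophil diversity and function. By this design the deletion is carried by donor cells of every lineage, not by neutrophils alone. The tumour cells, the other tissue and any host leukocytes that survived irradiation are not touched by the graft. All tumours were minced, digested with collagenases, DNase and dispase for 45 min at 37 °C, passed through a 70 µm strainer and sorted for live CD45+ cells, which were loaded into BD Rhapsody microwells. The series holds 2 libraries, 1 labelled wt and 1 labelled Lcn2-ko. The number of animals behind each is not given in the sources used here.

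Heat shock proteins are chaperones that bind unfolded stretches of other proteins. When misfolded proteins build up, the transcription factor HSF1 is released from chaperones, binds heat shock elements made of inverted GAA units and drives a small set of genes within minutes. Hspa1a and Hspa1b encode the stress-inducible Hsp70, whose cycle of binding and release is set by J-domain proteins such as that of Dnajb1 and by exchange factors such as those of Hsph1 and Bag3. Hspb1 encodes a small chaperone that holds clients without ATP, Hsp90aa1 the inducible cytosolic Hsp90, Hspa8 the constitutive Hsp70, and Hspd1 and Hspe1 the chaperonin and its lid in mitochondria. In single-cell work these genes are also known to respond to warm enzymatic digestion of tissue.

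Hspa1a and Hspa1b lie next to each other on chromosome 17 (mm10, GENCODE M21), at 34969190 to 34972156 and 34956436 to 34959238, on the minus strand, with 9951 bases between them. Their coding sequences were 99.4% identical (1918 of 1929 aligned positions), whereas the parts after the stop codon, which a 3′ assay reads, were only 47.8% identical (392 of 820). The 250 bases before each start site, from RefSeq (GRCm38.p6), are shown because the pair is near-identical here as well, with 247 of 250 positions shared (98.8%). Counted from 1 at the 5′ end, with the base of Hspa1a first, the differences were C44T, T47C and T249G. Capitals mark each match to a pair of heat shock units (GAANNTTC or TTCNNGAA, both strands searched). Hspb1 is shown for its 2 matches, against 1 each in Hspa1a and Hspa1b.
Hspa1a, chr17:34972157-34972406, minus strand: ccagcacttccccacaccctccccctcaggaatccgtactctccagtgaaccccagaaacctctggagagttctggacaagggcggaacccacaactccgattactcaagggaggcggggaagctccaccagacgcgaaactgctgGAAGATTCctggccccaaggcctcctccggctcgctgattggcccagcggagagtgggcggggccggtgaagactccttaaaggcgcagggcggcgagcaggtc
Hspa1b, chr17:34959239-34959488, minus strand: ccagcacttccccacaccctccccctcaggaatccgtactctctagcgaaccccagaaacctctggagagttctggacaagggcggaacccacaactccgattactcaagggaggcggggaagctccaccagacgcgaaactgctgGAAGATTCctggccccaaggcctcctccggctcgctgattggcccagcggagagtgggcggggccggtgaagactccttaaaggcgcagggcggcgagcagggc
Hspb1, chr5:135887669-135887918, plus strand: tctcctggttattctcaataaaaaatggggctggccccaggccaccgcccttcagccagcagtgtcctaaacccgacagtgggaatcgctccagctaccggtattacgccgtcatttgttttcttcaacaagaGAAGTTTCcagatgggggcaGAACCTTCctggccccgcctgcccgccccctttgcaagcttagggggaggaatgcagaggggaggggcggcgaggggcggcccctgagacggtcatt
Windows were found for 8 of the 10 genes, in 11 windows. A pair of units occurred once in those of Hspa1a, Hspa1b and Hsph1, and at 2 places in that of Hspb1. That of Hspe1 held 3, as did 1 window of Hspd1, whose other window held none. Those of Dnajb1 and Bag3 held none. Such a match is common, present in 12.8% of 32851 promoter windows of 250 bases, with overlapping matches counted. A run of 3 alternating units (GAANNTTCNNGAA or TTCNNGAANNTTC) was present in only 0.466% of them (153 windows). Among the members it was found in the region shared by Hspe1 and Hspd1, which are read in opposite directions and overlap at their 5′ ends on chromosome 1. There 2 such runs overlapped within 18 bases, in the following stretch of the plus strand, which falls in an annotated exon of Hspd1.
Hspe1 and Hspd1, chr1:55088053-55088082, plus strand: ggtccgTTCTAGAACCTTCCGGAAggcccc
A match describes only the letters in the window.

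There were 7974 barcodes with 42069099 UMIs (unique molecular identifiers, each standing for a captured transcript) in the wt library, and 7788 with 40959725 in the Lcn2-ko-labelled library. After filtering, 7429 and 7248 cells were clustered without the heat shock genes. The libraries shared 4 barcode sequences. Large enough to describe, at 100 or more cells per library, were neutrophils (623 wt cells and 386 of the Lcn2-ko-labelled library), monocyte-macrophages (745 and 824), dendritic cells (792 and 589), T cells (2918 and 3192), NK cells (243 and 350) and Ptprc-low clusters (1809 and 1651). The last are cells with little Ptprc, the gene of CD45, and markers of tumour or stroma, present despite the sort. Levels are given as UMIs of a gene per 1000000 UMIs of the class (CPM). Lcn2 itself was counted in both libraries, with 206 UMIs (207 CPM) in wt neutrophils and 82 (161 CPM) in those of the Lcn2-ko-labelled library. Which part of Lcn2 was deleted is not given in the sources used here, and a 3′ tag outside that part checks nothing.  Ratios are the Lcn2-ko-labelled library over wt on the log2 scale, and the 95% intervals are exact and cover counting error only. With 1 library per label nothing was tested, and genotype, animal, handling and sequencing run cannot be told apart.

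Hspa1a and Hspa1b together were lower in the Lcn2-ko-labelled library in every class of that size except neutrophils. In T cells the level was 1856 CPM in wt (16271 UMIs) and 546.5 CPM in the other library (5572 UMIs), a log2 ratio of -1.76 (-1.81 to -1.72). NK cells held 1785 and 571 CPM, with a ratio of -1.64 (-1.78 to -1.51). In monocyte-macrophages the values were 2275 and 772 CPM and the ratio -1.56 (-1.61 to -1.51). Lymphoid cells and monocyte-macrophages thus both had lower levels, by values whose difference was not tested. Dendritic cells had the highest wt level, 3203 CPM against 1138, with a ratio of -1.49 (-1.54 to -1.45). The Ptprc-low clusters had the lowest levels, 359 and 177 CPM, and a smaller ratio of -1.02 (-1.09 to -0.95). Neutrophils stood at 1799 CPM (1791 UMIs) and 1883 CPM (961 UMIs), a ratio of 0.07 whose interval, -0.05 to 0.18, holds 0.
Hspa1a and Hspa1b taken separately gave the same picture outside the neutrophils. Hspa1a had log2 ratios of -1.76 in T cells, -1.68 in NK cells, -1.57 in dendritic cells, -1.56 in monocyte-macrophages and -1.30 in the Ptprc-low clusters. Hspa1b had -1.77, -1.61, -1.39, -1.56 and -0.98 in the same order. In T cells they were the lowest 2 ratios of 6287 genes that reached 20 CPM in a library, and in dendritic cells the lowest 2 of 5879. Counted from the lowest, Hspa1a and Hspa1b ranked 3 and 4 of 5952 genes in monocyte-macrophages. They ranked 6 and 9 of 6211 in NK cells, and 4 and 11 of 6725 in the Ptprc-low clusters. In neutrophils the ranks were 2792 and 2340 of 4651.

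**Figure D1:**
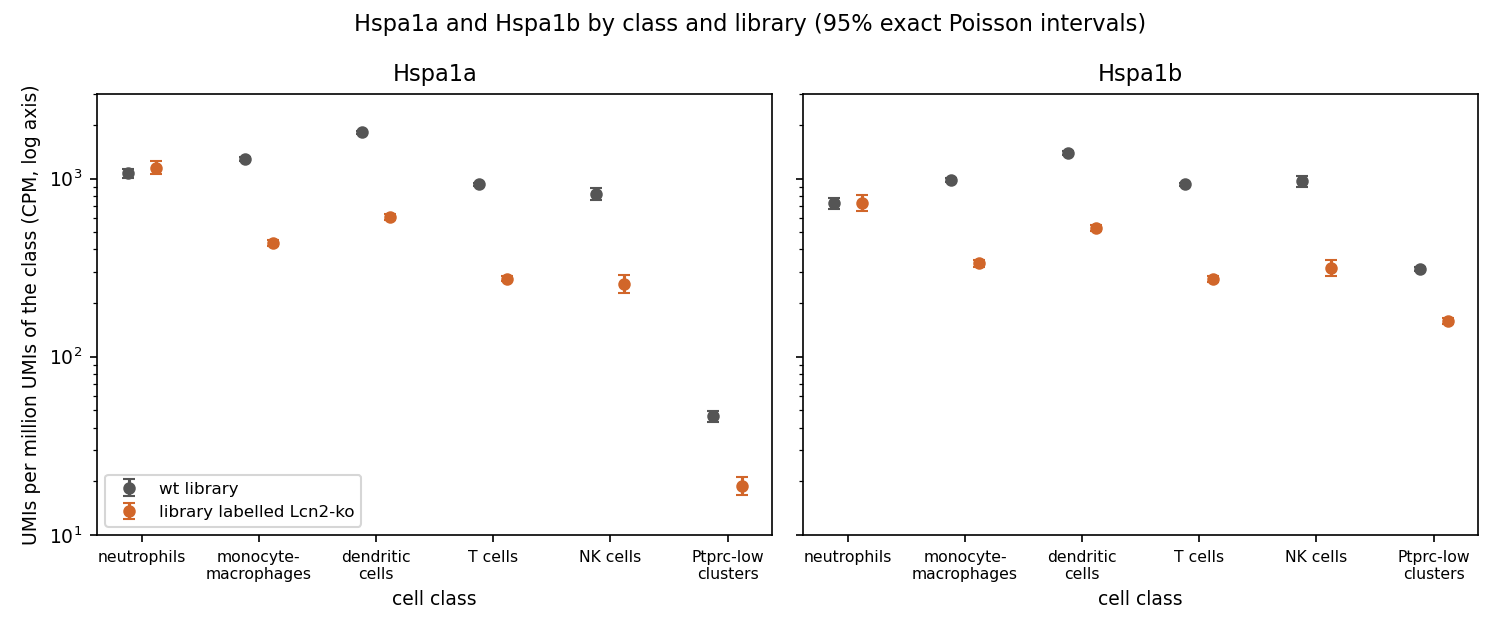
Hspa1a and Hspa1b in 6 cell classes, in CPM on a log axis, in the wt library (grey) and the Lcn2-ko-labelled library (orange), with 95% exact Poisson intervals. The libraries are apart in every class but neutrophils, and Hspa1a is far below Hspa1b only in the Ptprc-low clusters, 46.5 against 312 CPM in wt.

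The order of the classes was not the same in the libraries. In wt, dendritic cells (3157 to 3250 CPM) came first and monocyte-macrophages (2236 to 2313 CPM) next. T cells (1827 to 1884 CPM), neutrophils (1716 to 1884 CPM) and NK cells (1694 to 1879 CPM) followed with overlapping intervals. In the Lcn2-ko-labelled library neutrophils came first (1766 to 2006 CPM), then dendritic cells (1105 to 1171 CPM) and monocyte-macrophages (750 to 794 CPM). NK cells (527 to 617 CPM) and T cells (532 to 561 CPM) overlapped, and the Ptprc-low clusters were last in each library.
Within classes the level differed several-fold between clusters. Among T cells, wt cluster 2, led by Ly6c2, Il17a and Cd8b1, held 3672 CPM of the pair. Foxp3-expressing clusters 0 and 15, which carry the mark of regulatory T cells, held 938 and 527 CPM in wt. In the Lcn2-ko-labelled library these were 1022, 283 and 78.2 CPM, with the same order. Among dendritic cells, wt cluster 7 (Xcr1 and Clec9a, genes of cross-presenting cells) held 3668 CPM, cluster 12 (Cd209a) 2743 CPM and cluster 16 (Fscn1 and Ccr7, genes of mature cells) 1253 CPM, against 1647, 604 and 399 CPM. Cluster 7 made up 459 wt dendritic cells but 249 of the other library, while cluster 12 had 246 and 249, so the class value mixes them in different shares. With clusters weighted alike the dendritic cell ratio was -1.39. Of 21 clusters with at least 20 cells in each library, 20 had a lower level in the Lcn2-ko-labelled library, all by at least 1.5-fold. The exception was the neutrophil cluster. Clusters 21 and 22 were below that size, and neither had a lower level. Cluster 21, of the Ptprc-low class (18 and 26 cells), held 570 and 608 CPM, a ratio of 0.09 (-0.37 to 0.58). Cluster 22 is given under other observations.

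**Figure D2:**
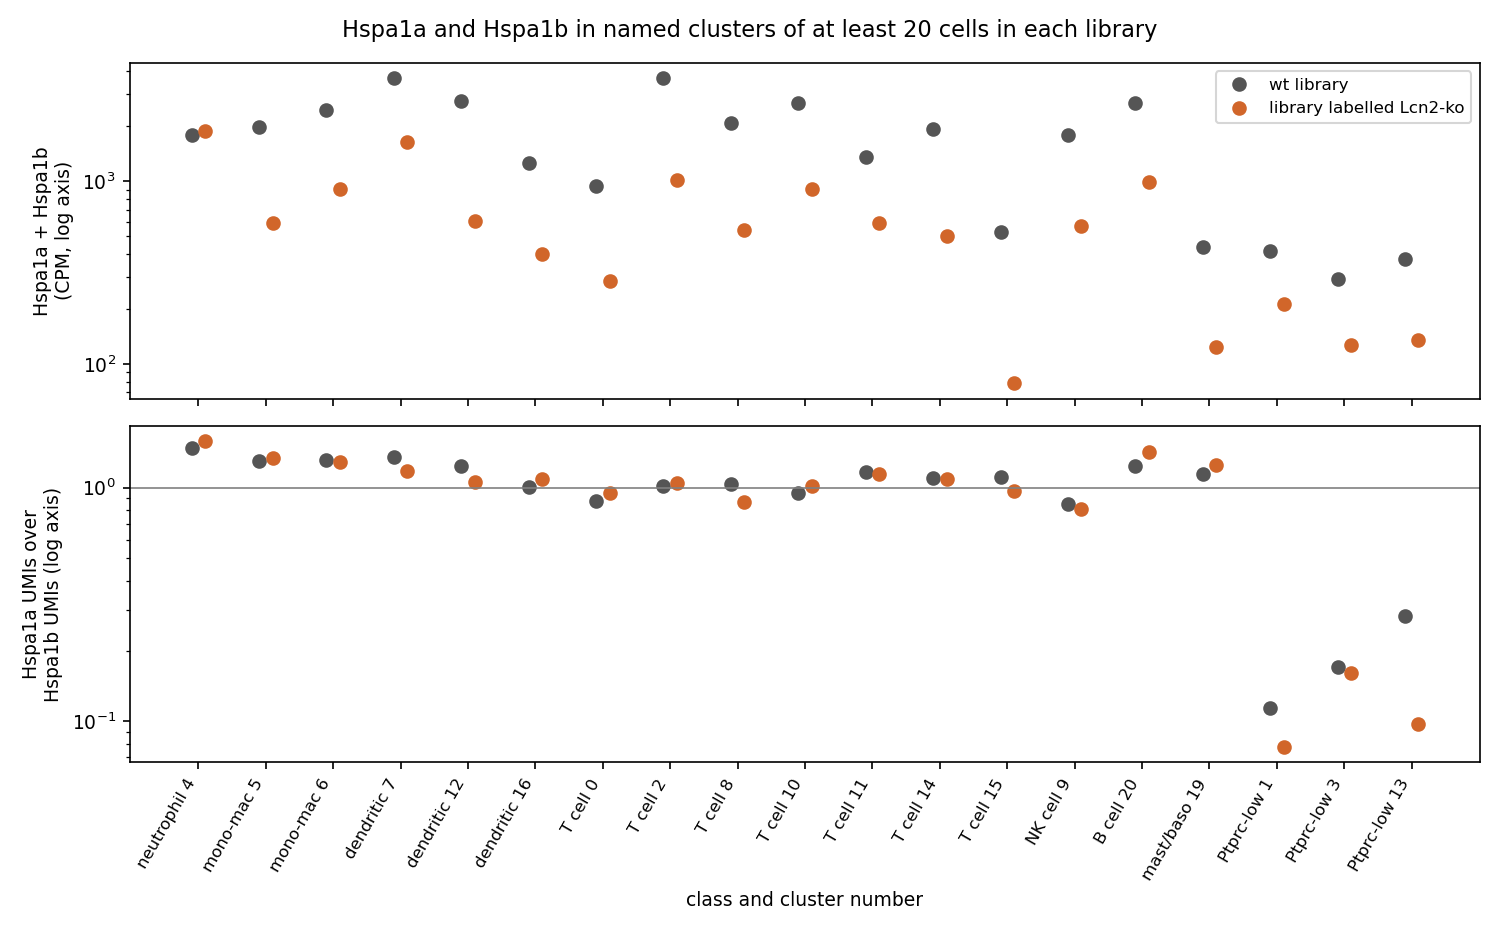
Summed level of Hspa1a and Hspa1b (top, CPM, log axis) and the ratio of their UMIs (bottom, log axis) in each named cluster of at least 20 cells in each library, wt in grey and the Lcn2-ko-labelled library in orange. The orange point is below the grey one everywhere but in neutrophils, and the UMI ratio is near 1 in immune clusters and below 0.3 in the Ptprc-low clusters shown.

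The balance of Hspa1a and Hspa1b UMIs separated the Ptprc-low clusters from the leukocytes. The ratio of Hspa1a to Hspa1b UMIs was 1.47 in wt neutrophils and 1.58 in those of the Lcn2-ko-labelled library. Monocyte-macrophages had 1.31 and 1.30, dendritic cells 1.31 and 1.15, T cells 1.0001 and 1.01, and NK cells 0.85 and 0.81. In the Ptprc-low clusters it was 0.149 (0.138 to 0.161) and 0.120 (0.106 to 0.135), from 773 Hspa1a against 5191 Hspa1b UMIs in wt and 298 against 2485. The ends of the 2 transcripts may be captured with different efficiency, so only the change of the ratio between classes is read here. Over the 14 clusters of the 5 immune classes it ranged from 0.85 to 1.47 in wt and from 0.81 to 1.58 in the other library. A small Ptprc-low cluster with Col1a2, a fibroblast collagen gene, had 1.27 and 0.72, from 18 and 26 cells.
Immune marker RNA was also counted in the Ptprc-low clusters. Summed marker genes of neutrophils, monocyte-macrophages, dendritic cells, T cells and NK cells stood there at 1.04% to 3.54% of their level in the class they mark. Hspa1a stood at 1.64% to 7.41% of its level in those classes, and Hspa1b at 21.6% to 58.1%. The part of immune RNA in the Hspa1a count of these clusters was not tested.

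The signal sat in a minority of cells in T cells, NK cells and neutrophils. A UMI of Hspa1a or Hspa1b was found in 41.0% of wt T cells (1196 cells) and in 24.2% of those of the Lcn2-ko-labelled library (772 cells). NK cells had shares of 47.7% and 21.7%, Ptprc-low cells 54.0% and 38.3%, dendritic cells 68.2% and 46.2%, and monocyte-macrophages 71.9% and 50.2%. Median depth ran from 2602.5 UMIs in wt T cells to 8290 in wt Ptprc-low cells, so these shares are not comparable between classes as they stand. With each cell thinned to 800 UMIs, which leaves out shallower cells, the shares were 41.2% and 22.7% in dendritic cells (791 and 587 cells), 40.8% and 21.3% in monocyte-macrophages (738 and 816), 31.1% and 12.6% in NK cells (241 and 348), 27.3% and 11.7% in T cells (2895 and 3180) and 18.8% and 8.2% in the Ptprc-low clusters (1728 and 1606). At equal depth, then, the pair was met most often in dendritic cells and monocyte-macrophages. The thinned T cell share was 15.6 percentage points lower in the Lcn2-ko-labelled library (13.6 to 17.6, Newcombe interval), and that of monocyte-macrophages 19.5 points lower (14.9 to 23.9). No class here is known to lack these genes, so a background from free RNA has no reference. For Hspa1a alone the lowest class was the Ptprc-low clusters, with 4.3% and 1.3% of thinned cells, against 31.8% and 15.6% of monocyte-macrophages.
Cells that carried the pair also carried less of it in the Lcn2-ko-labelled library. Thinned positive cells held a mean of 4.77 UMIs in wt monocyte-macrophages and 2.78 in the other library, 5.86 and 3.50 in dendritic cells, 6.30 and 4.39 in T cells, and 5.59 and 3.91 in NK cells. In Ptprc-low cells, not thinned, the means were 6.10 and 4.40. Cells with at least 10 UMIs, a limit chosen after seeing the data, made up 34.7% of wt dendritic cells and 17.0% of the other library without thinning. These shares were 32.8% and 13.6% of monocyte-macrophages, 17.3% and 5.43% of NK cells, 14.0% and 4.51% of T cells, and 9.51% and 4.42% of Ptprc-low cells. Both the number of positive cells and the UMIs in them were therefore lower in those 5 classes.
The UMIs were held by few cells, and by fewer in the Lcn2-ko-labelled library. The 10% of cells with the most pair UMIs held 78.4% of them in wt T cells and 90.9% in the other library. The same shares were 70.7% and 91.6% in NK cells, 68.1% and 74.3% in the Ptprc-low clusters, 55.3% and 77.0% in dendritic cells, and 58.6% and 75.6% in monocyte-macrophages. Without the top 1% of cells the ratio moved away from 0, to -2.08 in T cells and -2.07 in NK cells. The highest count in a cell was 352 UMIs in a wt monocyte-macrophage.

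**Figure D3:**
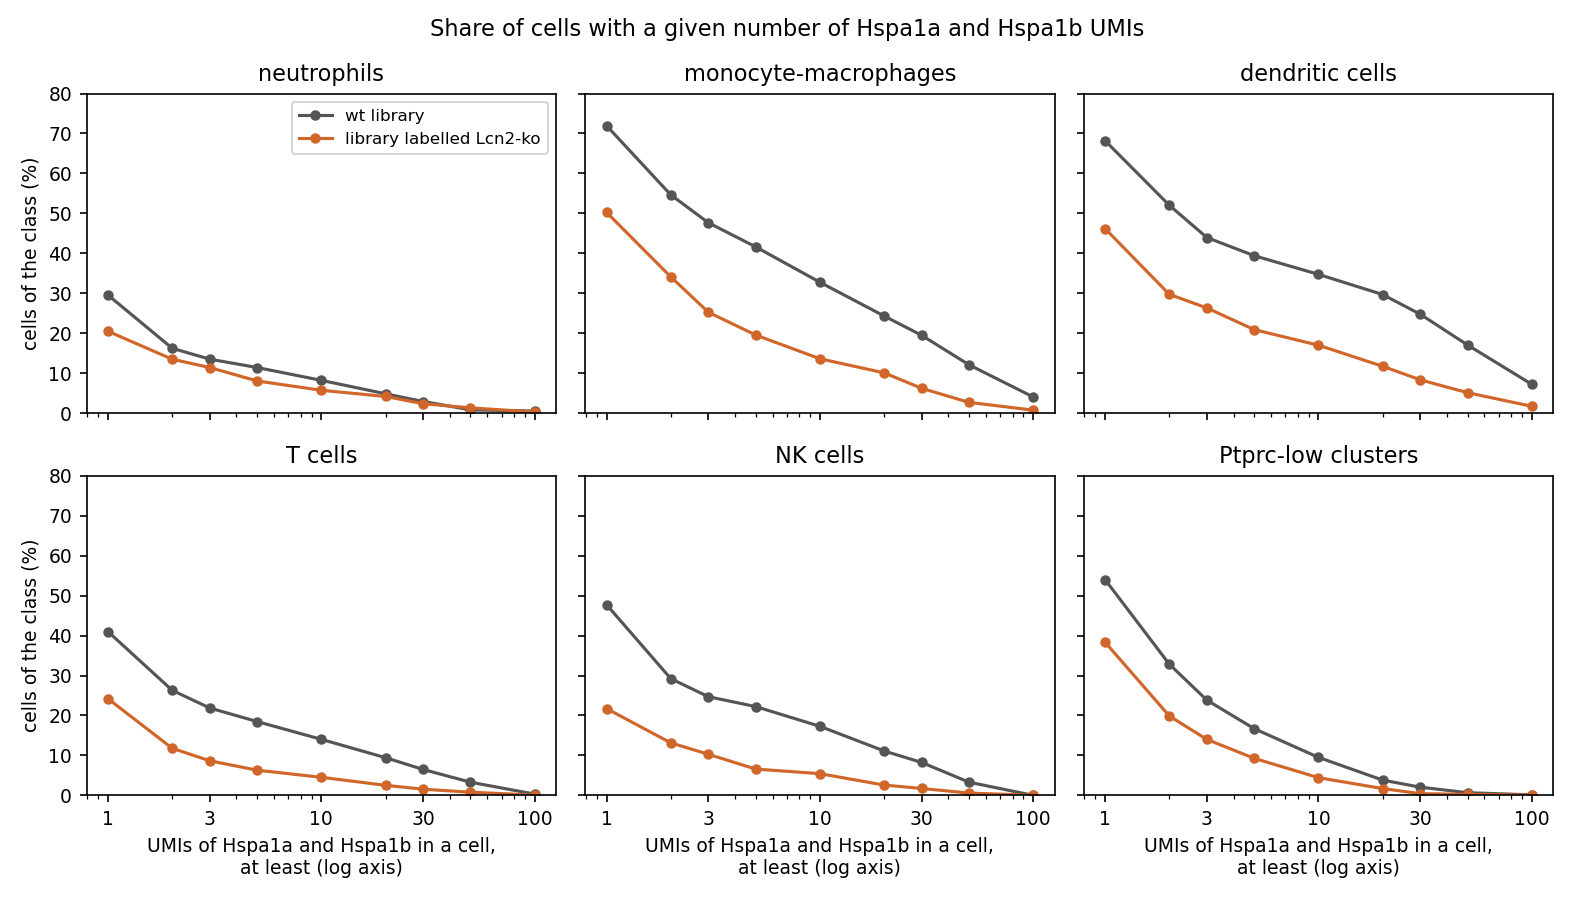
Share of cells of each class with at least a given number of Hspa1a and Hspa1b UMIs (log axis, cells not thinned), wt in grey and the Lcn2-ko-labelled library in orange. The orange curve runs below the grey one over most of its length in 5 classes, and the curves meet above 20 UMIs in neutrophils.

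Read over the 10 genes, the Lcn2-ko-labelled library was at least 1.5-fold lower in 6 in monocyte-macrophages, where 1.65% of all genes that reached 20 CPM in a library were lower by that much. Dendritic cells had 6 (background 1.63%), T cells 6 (0.7%), NK cells 5 (6.44%), neutrophils 4 (11.3%) and the Ptprc-low clusters 2 (0.625%). At 2-fold the counts were 1 in neutrophils (3.61%), 1 in the Ptprc-low clusters (0.134%), 3 in NK cells (1.21%), 2 in T cells (0.0477%), 5 in dendritic cells (0.221%) and 4 in monocyte-macrophages (0.319%). No member was 1.5-fold higher in any of the 6 classes, where 11.3% of all genes were so in neutrophils, 0.52% in the Ptprc-low clusters, 5.43% in NK cells, 0.35% in T cells, 1.36% in dendritic cells and 0.487% in monocyte-macrophages. All 10 reached 20 CPM in every class. The median log2 ratio of the members was -1.10 in dendritic cells, -0.76 in monocyte-macrophages, -0.74 in T cells, -0.59 in NK cells, -0.35 in neutrophils and -0.32 in the Ptprc-low clusters, and that of all genes lay within 0.03 of 0 in each. Because the genes were picked with such ratios known, nothing is read from these counts.

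**Figure D4:**
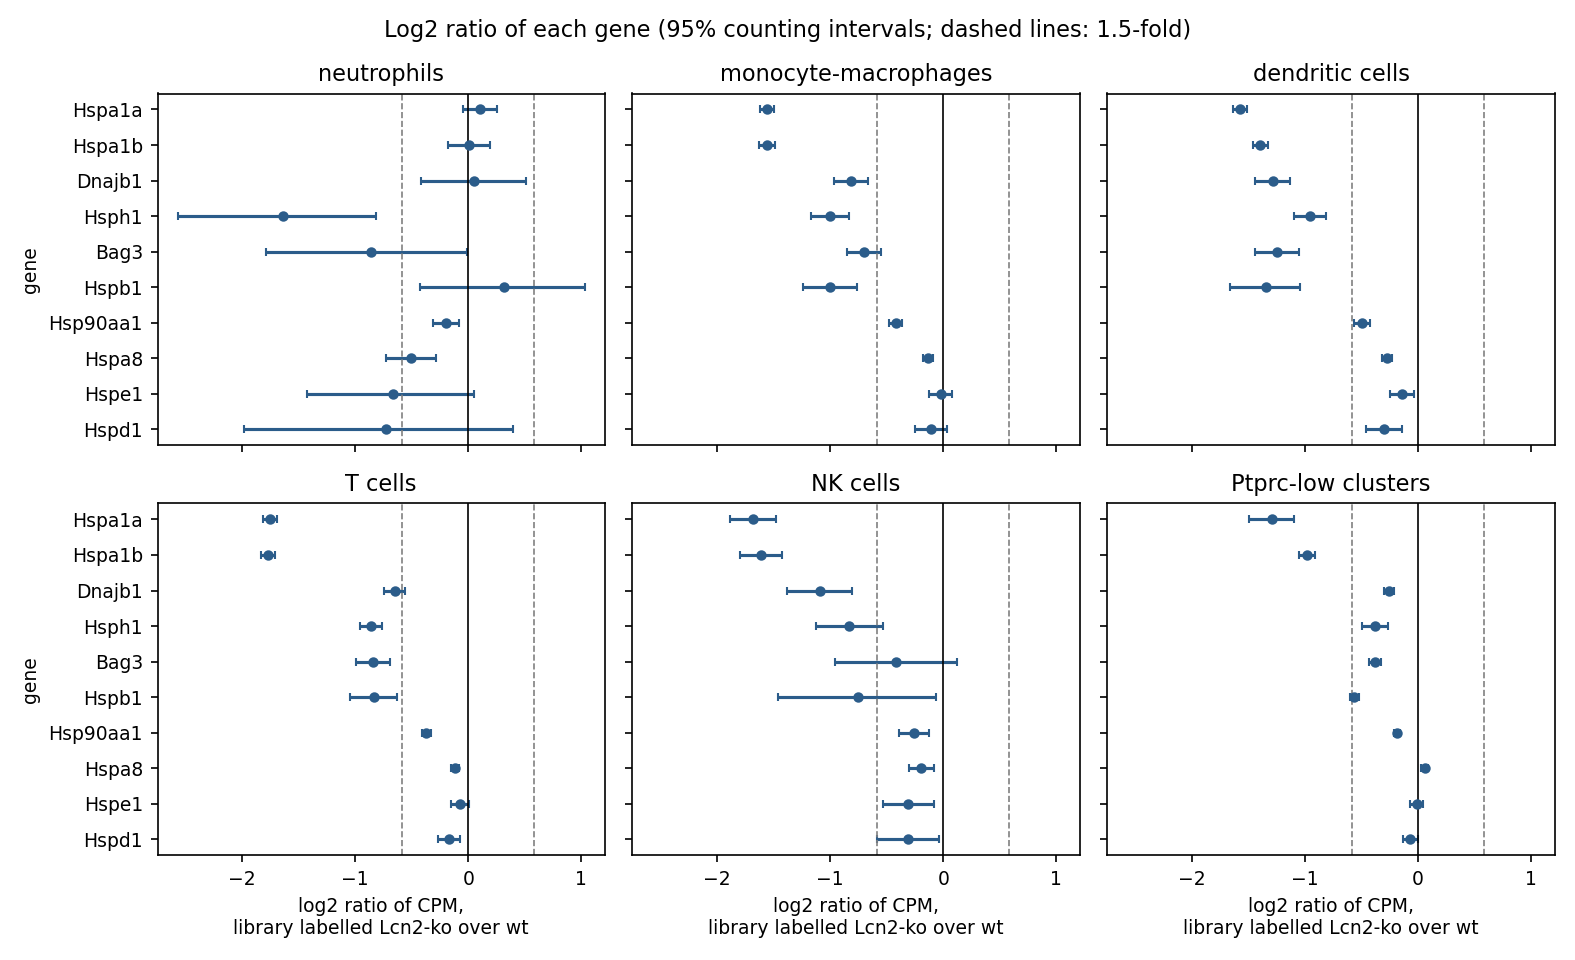
Log2 ratio of each gene, Lcn2-ko-labelled library over wt, by class, with 95% exact counting intervals. Solid lines mark 0 and dashed lines 1.5-fold, and the upper 6 genes lie left of the lower 4 in the 5 classes other than neutrophils.

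The cochaperones of Hsp70 followed with smaller differences. Dnajb1, whose J-domain protein hands clients to Hsp70, was at 270 CPM in wt dendritic cells and 111 in the Lcn2-ko-labelled library, a log2 ratio of -1.29 (-1.44 to -1.13). It was at 322 and 151 CPM in NK cells (-1.09), 158 and 89.7 CPM in monocyte-macrophages (-0.81) and 253 and 161 CPM in T cells (-0.65). In the Ptprc-low clusters, at 502 and 420 CPM, the ratio was -0.26 (-0.30 to -0.21).
Hsph1 encodes the Hsp110 exchange factor of Hsp70. Its level was 144 CPM in wt monocyte-macrophages and 71.8 in the other library (-1.003), 271 and 140 CPM in dendritic cells (-0.96), 255 and 141 CPM in T cells (-0.86) and 271 and 152 CPM in NK cells (-0.83). The Ptprc-low clusters differed less, with 93.2 and 71.5 CPM (-0.38).
Bag3 encodes an exchange factor that links Hsp70 to selective autophagy. It was at 171 CPM in wt dendritic cells and 71.9 in the other library (-1.25), at 109 and 60.6 CPM in T cells (-0.84), and at 157 and 96.6 CPM in monocyte-macrophages (-0.70). In NK cells it had 60 and 61 UMIs, and the interval of its ratio, -0.96 to 0.12, holds 0. In the Ptprc-low clusters it was at 416 and 318 CPM (-0.39), above each of the 5 immune classes in its library.

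Hspb1, the small chaperone, was highest in the Ptprc-low clusters. It stood there at 836 CPM in wt (13899 UMIs) and 565 CPM in the Lcn2-ko-labelled library (8891 UMIs), a log2 ratio of -0.56 (-0.60 to -0.53), just short of 1.5-fold. In the immune classes wt levels ran from 44.2 CPM in neutrophils to 73.3 CPM in monocyte-macrophages. The log2 ratios there were -1.35 in dendritic cells (70.7 and 27.8 CPM), -1.001 in monocyte-macrophages (73.3 and 36.6 CPM), -0.83 in T cells (55.4 and 31.1 CPM) and -0.76 in NK cells (50.2 and 29.7 CPM).
Markers of the Ptprc-low clusters were counted in the immune classes too. Hspb1 in the immune classes stood at 4.91% to 9.71% of its level in the Ptprc-low clusters, where 10 of the 12 listed marker genes of those clusters had class medians of 1.55% to 3.59%. Hspb1 was thus above the marker median in each class and library. Single markers reached further, up to 15.1% in wt neutrophils, 26.2% in wt monocyte-macrophages and 237% in wt T cells. Hspb1 lay below the highest marker in most classes. A marker at 237% is higher in T cells than in the clusters it marks, so this range is no gauge of RNA from those clusters. Bag3 stood at 9.23% to 41.1%. The summed Ptprc-low markers were higher in the Lcn2-ko-labelled library in monocyte-macrophages (422 and 693 CPM) and T cells (303 and 339 CPM), opposite to Hspb1. Their part in the Hspb1 difference was not tested.

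The abundant cytosolic chaperones differed less between the libraries. Hsp90aa1 was at 898 CPM in wt dendritic cells and 636 in the Lcn2-ko-labelled library (log2 ratio -0.50), at 952 and 711 CPM in monocyte-macrophages (-0.42), 1240 and 960 CPM in T cells (-0.37), 1082 and 904 CPM in NK cells (-0.26), 2033 and 1775 CPM in neutrophils (-0.20) and 1623 and 1426 CPM in the Ptprc-low clusters (-0.19). Its ratio was below 0 in all 6 classes, with no interval holding 0, and in none did it reach 1.5-fold. Unlike Hspa1a, it was found in nearly every cell of deep classes, in 91.8% and 90.5% of monocyte-macrophages.
Hspa8, the constitutive partner of Hspa1a, was at 1714 and 1416 CPM in dendritic cells (-0.28), 1469 and 1285 CPM in NK cells (-0.19), 1216 and 1108 CPM in monocyte-macrophages (-0.13) and 1401 and 1290 CPM in T cells (-0.12). In the Ptprc-low clusters it was slightly higher in the Lcn2-ko-labelled library, 1105 and 1150 CPM, with a ratio of 0.06 (0.03 to 0.09).
The mitochondrial chaperonin genes also differed by less than 1.5-fold outside neutrophils. Hspe1 was at 383 and 309 CPM in NK cells (-0.31), 316 and 286 CPM in dendritic cells (-0.14), 298 and 284 CPM in T cells (-0.07), 260 and 256 CPM in monocyte-macrophages (-0.02) and 298 and 295 CPM in the Ptprc-low clusters (-0.01). Hspd1, its partner across the shared promoter, had ratios of -0.32 in NK cells, -0.30 in dendritic cells, -0.17 in T cells, -0.11 in monocyte-macrophages and -0.07 in the Ptprc-low clusters. This is the pair whose shared upstream region holds the run of 3 heat shock units printed above, and Hspa1a and Hspa1b, with a single pair of units each in the window, had the lowest ratios outside neutrophils. The letters were not tied to the ratios.

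Neutrophils differed from the other classes in their pattern. Hspa1a was at 1072 and 1152 CPM (0.10), Hspa1b at 727 and 731 CPM (0.01), Dnajb1 at 115 and 120 CPM (0.05) and Hspb1 at 44.2 and 54.9 CPM (0.31, interval -0.43 to 1.03). Hsph1 had 85 UMIs in wt and 14 in the Lcn2-ko-labelled library, 85.4 and 27.4 CPM, with a log2 ratio of -1.64 (-2.57 to -0.81). Bag3 had 53 and 15 UMIs (-0.86), Hspe1 68 and 22 (-0.66) and Hspd1 29 and 9 (-0.72), and the last 2 intervals hold 0. A single wt neutrophil held 22 of the 53 Bag3 UMIs, so that ratio leans on 1 cell. Hspa8 was at 623 and 439 CPM (-0.50).
A minority of neutrophils held the pair. A UMI of it was seen in 29.5% of wt neutrophils and 20.5% of the others, or 22.2% and 14.9% at 800 UMIs, with median depths of 1369 and 1220.5 UMIs. This share goes against the CPM, so no order is read from either. The top 10% of cells held 88.7% and 94.0% of the UMIs. Neutrophils with at least 3 pair UMIs numbered 84 and 44. In wt they carried more dendritic cell marker RNA than neutrophils with none (488 and 50.02 CPM) and more NK cell marker RNA (236 and 54.9 CPM), and fewer neutrophil marker UMIs (16271 and 23148 CPM). Monocyte-macrophage markers were at 1179 and 779 CPM and T cell markers at 724 and 420 CPM. In the Lcn2-ko-labelled library the dendritic cell markers were at 0 in the 44 such cells and at 52.1 CPM in neutrophils with none, while monocyte-macrophage markers were at 1283 and 873 CPM and T cell markers at 178 and 402 CPM. Over the whole class, summed markers of T cells were at 582 and 402 CPM and those of monocyte-macrophages at 885 and 937 CPM, with no listed marker of either at 0.
An alternative chosen after seeing the data kept neutrophils without a UMI of T cell or monocyte-macrophage markers, 216 wt cells and 129 of the Lcn2-ko-labelled library. The pair was then at 2562 and 2119 CPM, a log2 ratio of -0.27. Hspa1b was at 1048 and 648 CPM (-0.69), past 1.5-fold lower, and Hspa1a at 1514 and 1471 CPM (-0.041). Dnajb1 was at -0.26, Bag3 at -1.68 and Hspd1 at 0.59. The Hsph1 ratio was 0.015 in these cells, at 50.46 and 50.98 CPM. No interval was computed for this smaller set, so its ratios do not place the class differences in either group of neutrophils. The part of T cell or monocyte-macrophage RNA in the neutrophil values was not tested.

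Within a library most other members were found more often in cells with an Hspa1a or Hspa1b UMI, each cell thinned to 800 UMIs. The exceptions were Hspd1 in neutrophils of each library, and in the Lcn2-ko-labelled library Hsph1 and Bag3 in neutrophils, Bag3 and Hspe1 in monocyte-macrophages and Hspd1 in NK cells. Hsph1 was found in 30.6% of wt T cells with the pair and 7.1% of those without, and in 28.2% and 6.5% in the Lcn2-ko-labelled library. Dnajb1 gave 27.5% and 9.3% in wt T cells, and 27.2% and 8.9% in the other library. Among T cells that carried the pair, Bag3 was found in 15.9% in wt and 9.1% in the other library, and Hsp90aa1 in 70.0% and 61.8%. In wt dendritic cells Dnajb1 was found in 24.8% with and 3.4% without the pair, but in 11.3% and 4.4% in the Lcn2-ko-labelled library. Bag3 behaved likewise there, with 17.2% and 4.5% in wt and 7.5% and 4.6% in the other library. Hspb1 gave little contrast in wt T cells (5.4% and 3.6%) and a wide one in wt Ptprc-low cells (60.2% and 29.3%). The abundant genes followed too, with Hspa8 in 79.1% and 57.0% of wt dendritic cells and Hsp90aa1 in 72.4% and 41.8% of wt neutrophils.
Hspa1a and Hspa1b met in the same cells in leukocytes. Hspa1b was found in 70.0% of wt T cells with an Hspa1a UMI and 8.7% of those without, and in 62.1% and 4.7% in the Lcn2-ko-labelled library. In wt Ptprc-low cells it was found in 15 of the 75 cells with an Hspa1a UMI, and in 15.1% of those without. In the Lcn2-ko-labelled library it was found in 5 of 21 such cells and in 7.0% of those without.

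**Figure D5:**
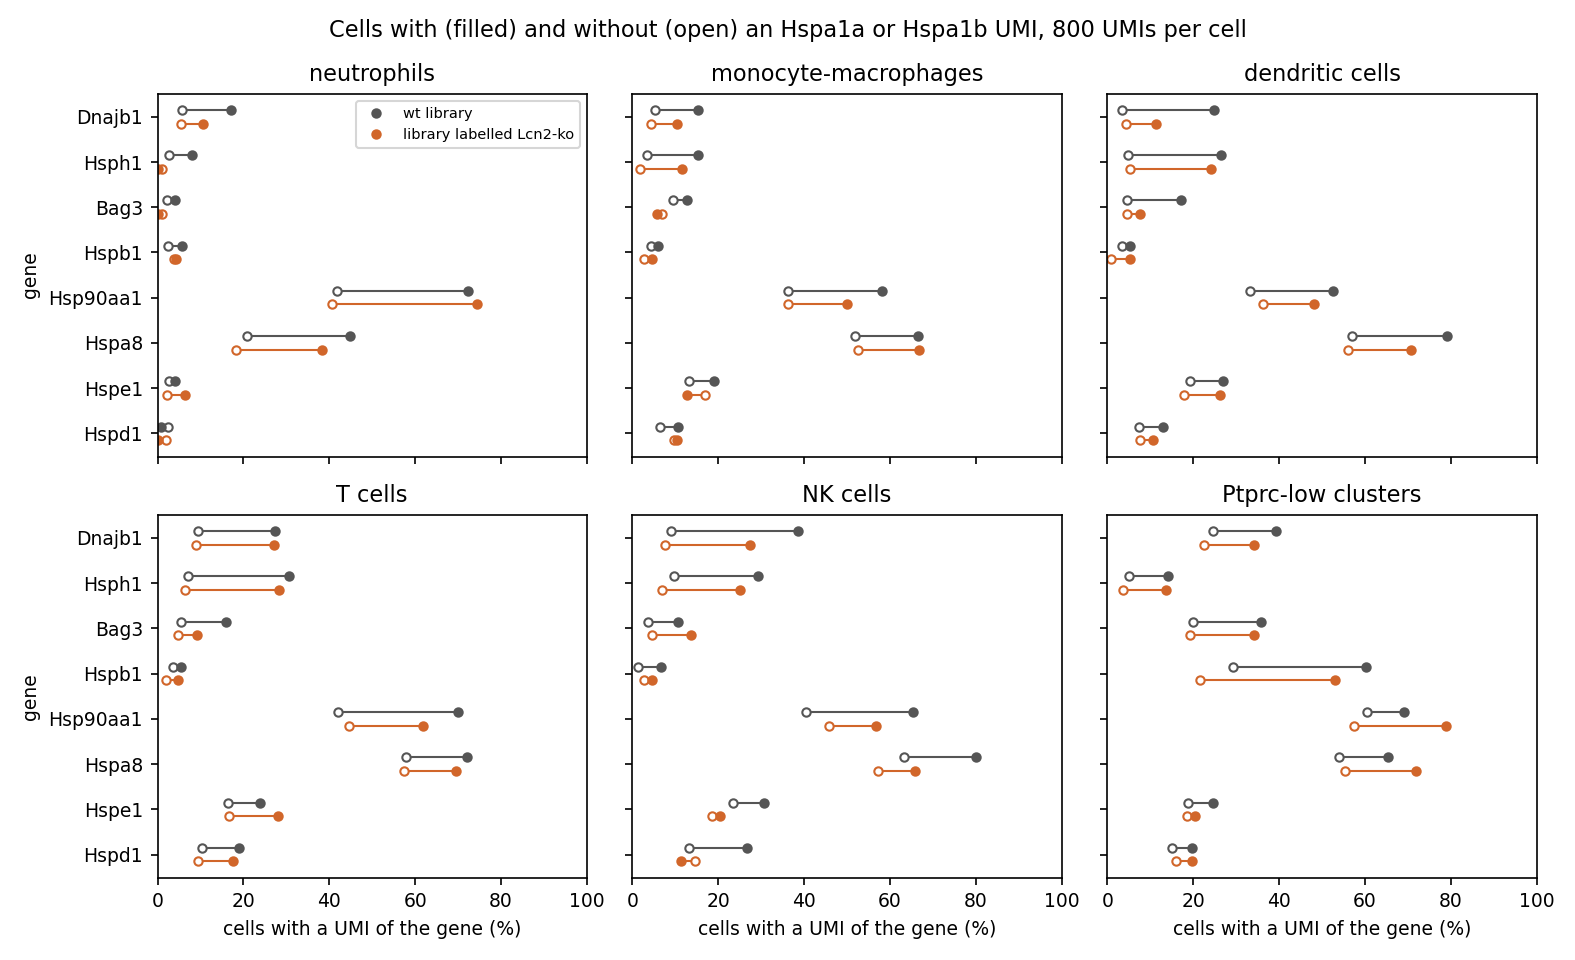
Share of cells with a UMI of each of the 8 other genes, among cells with (filled) and without (open) an Hspa1a or Hspa1b UMI, each cell thinned to 800 UMIs, wt in grey and the Lcn2-ko-labelled library in orange. Filled points lie right of open ones for Dnajb1, Hsph1, Hsp90aa1 and Hspa8 in nearly all classes, and Hspb1 shows a wide gap in the Ptprc-low clusters.

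Several other members, with Jun beside them, were among the genes whose level per cell was most like that of the pair. Among genes of at least 50 CPM, Hsph1 had the highest Pearson correlation with the pair over cells in monocyte-macrophages (0.55 in 745 wt cells and 0.43 in 824 of the other library) and in T cells (0.53 in 2918 and 0.43 in 3192). Dnajb1, Hsp90aa1 and Jun were among the next 4 in each of these. Hspb1 ranked lower, 60 of 3028 genes in wt monocyte-macrophages and 95 of 3400 in wt T cells. Bag3 ranked from 6 in wt T cells to 74 in monocyte-macrophages of the Lcn2-ko-labelled library. The cells of a library share its preparation, and depth differs between them, so the values are descriptive. Over the 12 sums of class and library, by contrast, Hsph1 correlated with the pair at 0.34 and Dnajb1 at -0.35. The most alike genes outside the pair were Nr4a1 (0.87), Rtf2 (0.84) and Tagap (0.83) of 5618 genes.
Immediate-early genes, which rise in minutes after many stimuli and during tissue dissociation, were higher in cells with the pair in dendritic cells, T cells, NK cells and monocyte-macrophages of each library. In wt dendritic cells their 17 listed genes summed to 22065 CPM in cells with at least 3 pair UMIs and 13749 CPM in cells with none. In wt T cells the sums were 14170 and 10257 CPM, and in wt monocyte-macrophages 19774 and 14315 CPM. The order was reversed in wt Ptprc-low cells (24317 and 28006 CPM) and wt neutrophils (35332 and 37370 CPM), but not in those of the Lcn2-ko-labelled library (28983 and 26782 CPM, and 42704 and 35611 CPM). Between libraries their sums differed far less than the pair. The sums were 26283 and 26592 CPM in the Ptprc-low clusters, 11453 and 10980 CPM in NK cells and 11242 and 9985 CPM in T cells. Dendritic cells had 18204 and 15751 CPM and monocyte-macrophages 18029 and 15765 CPM. The median log2 ratio of the listed genes was -0.27 in T cells, -0.24 in monocyte-macrophages and -0.13 in dendritic cells. It was -0.11 in NK cells, -0.005 in the Ptprc-low clusters and 0.04 in neutrophils. At least 1.5-fold lower in the Lcn2-ko-labelled library were 3 of 17 in monocyte-macrophages, 2 in dendritic cells and 1 in NK cells, and none elsewhere. The shares over all genes were 1.65%, 1.63% and 6.44% in these classes, so the NK cell count is near its background. In monocyte-macrophages these were Egr1 (-0.66), Jun (-0.61) and Klf2 (-0.60). Their part in the difference of the pair was not tested.

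Other chaperone lists were counted in the same way. Of 40 other heat shock and cytosolic chaperone genes, 33 reached 20 CPM in T cells, 31 in dendritic cells, 31 in monocyte-macrophages, 32 in NK cells, 35 in the Ptprc-low clusters and 24 in neutrophils. Lower by at least 1.5-fold were 1 in monocyte-macrophages, dendritic cells, T cells and the Ptprc-low clusters each, 2 in NK cells and 6 in neutrophils. Over all genes the shares were 1.65%, 1.63%, 0.7%, 0.625%, 6.44% and 11.3% in that order. None was higher by that much outside neutrophils, where 2 of 24 were, beside 11.3% of all genes. Dnajc7, a cochaperone that binds both Hsp70 and Hsp90, was the lower gene in each of those 4 classes, with a log2 ratio of -0.63 in T cells (70.1 and 45.2 CPM) and -0.66 in the Ptprc-low clusters. Cdc37, which brings kinases to Hsp90, was at -0.37 in T cells and -0.49 in monocyte-macrophages. Dnaja1, a J-domain gene, was at -0.35 in monocyte-macrophages and -0.04 in T cells.
Mitochondrial chaperones other than the 2 chaperonin genes held 1 gene lower by 1.5-fold, of 4 measured in NK cells, and none in the other classes. The share over all genes in NK cells was 6.44%. Of 18 genes of the endoplasmic reticulum chaperones and the unfolded protein response, 17 were measured in each class other than neutrophils, and none passed 1.5-fold in either direction. Hspa5, the Hsp70 of that compartment, was at 2016 and 1756 CPM in monocyte-macrophages (-0.20) and 1304 and 1217 CPM in T cells (-0.10). In neutrophils 1 of 15 was lower and 1 higher, where 11.3% of all genes were lower and 11.3% higher.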

How the data were processed

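Deposited were counts, which per the file headers and values are whole numbers of UMIs, 1 value for each gene in each barcode, not normalised. The submitters' processing notes name Cell Ranger and mm10, with no version or role. The genes and lists were chosen with earlier results of these data known.

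Cells with under 200 genes or over 20% mitochondrial UMIs were left out. Scrublet's own threshold marked 1 cell per library, so the highest 4% of scores were left out, a rule set after seeing the data. Both libraries were clustered together (scanpy 1.11.5, leidenalg 0.10.2) on 2000 variable genes without heat shock genes, 30 components, 15 neighbours and a resolution of 1, giving 23 clusters, named from marker lists. Limits of 100 CPM Ptprc, 500 CPM Cd3e and 55% of a second class's markers were set after seeing the data. Left unnamed were 2.29% of wt cells and 2.03% of the others. UMIs were summed per class and scaled to CPM. Intervals are exact Poisson for sums, Clopper-Pearson for shares, Newcombe for their differences and conditional binomial for ratios, all at 95%. No test was run, since each label has 1 library. The ratio and interval code was tested on simulated data. Named are all 10 members, and of each other list the genes with the highest, lowest and most abundant values, apart from an item that is not reported here. Alternatives covered doublets, cell filters, means over cells, thinning, scaling, top cells, resolution, centring, cluster weights and fold limits.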

Additional observations from a re-analysis of the deposited data

Results flagged for a closer look

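In neutrophils 5 values went the opposite way from monocyte-macrophages, a difference that was not tested. The log2 ratio of Hspa1a and Hspa1b summed was 0.0663 in neutrophils and -1.56 in monocyte-macrophages. Hspa1a alone was at 0.10, Hspa1b at 0.0076, Dnajb1 at 0.0497 and Hspb1 at 0.31 in neutrophils, each against a lower level in monocyte-macrophages. All 5 neutrophil intervals hold 0. Hspa8 was at 0.0573 in the Ptprc-low clusters and -0.13 in monocyte-macrophages, a difference that was likewise not tested.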

How the results depend on the processing

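Of 13 alternatives, all left the summed Hspa1a and Hspa1b ratio below 0 and past 1.5-fold in monocyte-macrophages, dendritic cells, T cells, NK cells and the Ptprc-low clusters. In neutrophils it ranged from -0.33 to 0.18 over 14 and never passed 1.5-fold. It was -0.11 with at least 500 genes per cell, -0.33 with cells thinned to 800 UMIs and -0.27 without cells carrying T cell or monocyte-macrophage markers. Means over cells gave -1.70 in monocyte-macrophages, -1.67 in dendritic cells and -1.11 in the Ptprc-low clusters. Thinning gave -1.72 (-1.715), -1.61 and -1.46 there, and -1.82 (-1.815) in NK cells. Leaving out the top 1% of cells gave -1.62 in dendritic cells, -2.08 in T cells, -2.07 in NK cells and -1.14 in the Ptprc-low clusters. A resolution of 2 gave -1.69 in monocyte-macrophages and of 0.5 gave -1.84 in NK cells. Weighting clusters alike gave -1.39 (-1.385) in dendritic cells, and keeping doublets -1.09 in the Ptprc-low clusters. In neutrophils 4 members were lower by 1.5-fold, but 2 with doublets kept, 2 with means over cells and 2 without cells carrying other markers, where Hsph1 (0.015) and Hspd1 (0.59) changed sign, as did Hspa1a (-0.041), Hspa1b (-0.69) and Dnajb1 (-0.26). Hspa1b and Bag3 (-1.68) were the 2 lower genes there, and Hspd1 was higher by 1.5-fold. At 2-fold the counts were 1 in neutrophils, 2 in T cells, 3 in NK cells and 1 in the Ptprc-low clusters. At 1.5-fold, thinning gave 4 members in the Ptprc-low clusters, against 2 in the main setting. The causes were not tested, apart from the stricter fold. No paired analysis was possible because each label has 1 library. Depth limits the neutrophil values, with 9 to 85 UMIs for Hsph1, Bag3, Hspe1, Hspd1 and Hspb1 per library in the whole class. The neutrophils without other markers hold no more than these, and their ratios have no interval.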

Other observations

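B cells were too few for the comparisons, with 51 wt cells and 39 of the Lcn2-ko-labelled library. Hspa1a and Hspa1b together had 199 and 58 UMIs there, 2686 and 993 CPM, with a log2 ratio of -1.44 (-1.88 to -1.01). The UMIs came from 12 and 9 cells, and 5 and 2 of those held at least 10. Hspb1 had 17 UMIs in wt B cells and 1 in the other library.

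Mast cells and basophils, 78 and 70 cells, had 466 and 384 CPM of the pair, a ratio of -0.28 (-0.61 to 0.05). Their clusters differed, with 437 and 123 CPM in cluster 19 (70 and 48 cells). Cluster 22 held 8 and 22 cells and 1360 and 2242 CPM, with positive shares of 12.5% and 9.09%, so a few cells carried those UMIs.

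Cluster 18, which had NK cell markers together with Cd3e and was left unnamed, held 2019 and 343 CPM of the pair in 71 and 84 cells, a ratio of -2.56 (-2.80 to -2.32). Cluster 17, with few UMIs per cell, held 963 and 126 CPM in 99 and 63 cells (-2.93).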
